A study of Mus musculus with 407 samples.

Results

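Expression of 10 genes of GDF5, myostatin and activin signalling was described in 4 muscles of C57BL/6J mice at 6 ages from 6 to 27 months. The genes were the ligands Gdf5, Mstn and Gdf11, the ligand-binding inhibitors Fst and Fstl3, the receptors Acvr2a, Acvr2b, Acvr1b and Bmpr1a, and the target gene Id1, and they are 10 of the 24458 gene symbols counted. All 10 were listed in the count table of every library. They were chosen by name, with results of these libraries known. Gdf5 was included because it rose strongly with age in limb muscle, so its levels are given below as a description with no test. The other 9 genes were tested.

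The ligands of this family are secreted proteins that bind a pair of type II and a pair of type I receptor kinases on the cell surface. Myostatin (Mstn), GDF11 and the activins bind ACVR2A or ACVR2B and then a type I receptor such as ACVR1B, and pass the signal to SMAD2 and SMAD3. GDF5 belongs to the bone morphogenetic protein (BMP) side, signals through type I receptors that include BMPR1A, and activates SMAD1, SMAD5 and SMAD9, which induce genes such as Id1. Follistatin (Fst) and follistatin-like 3 (Fstl3) bind activins, myostatin and GDF11 outside the cell and keep them from their receptors. In skeletal muscle, myostatin is made by the fibres and restrains their growth, BMP signalling opposes loss of mass, and Gdf5 is known as a gene that rises when a muscle loses its nerve supply.

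RNA was sequenced from the diaphragm, a respiratory muscle, from gastrocnemius and tibialis anterior, which are mostly fast muscles of the lower leg, and from soleus, a small calf muscle rich in slow fibres. Wild-type male and female mice entered the study, with no transgene and no drug treatment, and each of the 48 groups of 1 muscle, sex and age held 6 to 10 libraries, 407 in all. The youngest were 6 months old, and older groups followed at 12, 18, 21, 24 and lastly 27 months. The animals were bought at different ages and kept at the study's site before collection. All tissue of an age group was collected on 1 day, so age and collection day cannot be told apart. The labels do not state which muscles came from 1 mouse, and the p-values below measure the spread between the libraries of a group.

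Libraries held 38583802 to 300089909 counts, with a median of 72766895. A set of 9 libraries, 7 of diaphragm and 2 of gastrocnemius, stood apart from the others of their muscle and sex, all ages together. They did so by a median correlation below 0.85 or by a deviation that followed the GC content of the genes. In a pair of these, liver transcripts summed to 10561 and 27034 CPM, a gene's counts relative to the size of its library. Several results that rest on these libraries, but not all, are given with and without them. The muscle labels were checked against fibre genes: over groups of 1 sex at 6 months the median sum of 5 fast fibre genes was at least 52757 CPM in gastrocnemius and tibialis anterior and at most 14431 in diaphragm and soleus, and that of 4 slow fibre genes was 6967 and 9744 CPM in soleus and at most 809.5 elsewhere. The libraries carry sample numbers that fall into 3 runs, a main run of 295, a later run of 85 and an earlier run of 27, whose technical meaning the labels do not give. Levels are in CPM after TMM scaling, which trims extreme genes before it sets each library's scale, and a gene's level is set against another gene's only per kilobase of exon.

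At 6 months Mstn was the member whose level differed most between muscles. Over the 16 libraries of each muscle, both sexes together, its level per kilobase was lowest 28.1, median 37.4 and highest 48.3 CPM in gastrocnemius. In tibialis anterior the corresponding levels were 17.2, 20.3 and 34.1, in diaphragm 2.57, 4.83 and 11.7, and in soleus 0.229, 0.870 and 2.47. Gastrocnemius and tibialis anterior overlapped, and the other steps of this order did not.

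The order of the remaining ligand and inhibitors differed from gene to gene. Gdf11, a close relative of Mstn, had a median per kilobase of 1.87 CPM in gastrocnemius and 1.25 in tibialis anterior, against 0.201 in diaphragm and 0.196 in soleus. Fst ran the other way, with medians per kilobase of 4.13 CPM in soleus, 3.64 in diaphragm, 2.18 in gastrocnemius and 1.12 in tibialis anterior. Fstl3 was low throughout, with medians per kilobase between 0.510 and 0.991 CPM, the highest in diaphragm.

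Among the receptors, Bmpr1a had the highest level per kilobase in every muscle, with medians of 27.9 CPM in tibialis anterior, 22.8 in gastrocnemius, 19.5 in soleus and 18.4 in diaphragm. Acvr2a, a type II receptor for activins and myostatin, followed with 14.9 in gastrocnemius, 13.1 in tibialis anterior, 10.1 in soleus and 7.80 in diaphragm. The second type II receptor, Acvr2b, reached medians per kilobase of only 0.473 to 0.915 CPM. Acvr1b, the type I receptor of the activin side, was split like Mstn and Gdf11, with 6.13 in tibialis anterior and 5.43 in gastrocnemius against 1.36 in diaphragm and 1.25 in soleus. Id1 had medians per kilobase of 12.3 CPM in diaphragm, 11.05 in soleus, 7.84 in tibialis anterior and 7.08 in gastrocnemius. Gdf5 was the lowest of the 10 genes in each muscle, with medians per kilobase from 0.0281 CPM in gastrocnemius to 0.118 in soleus.

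**Figure D1:**
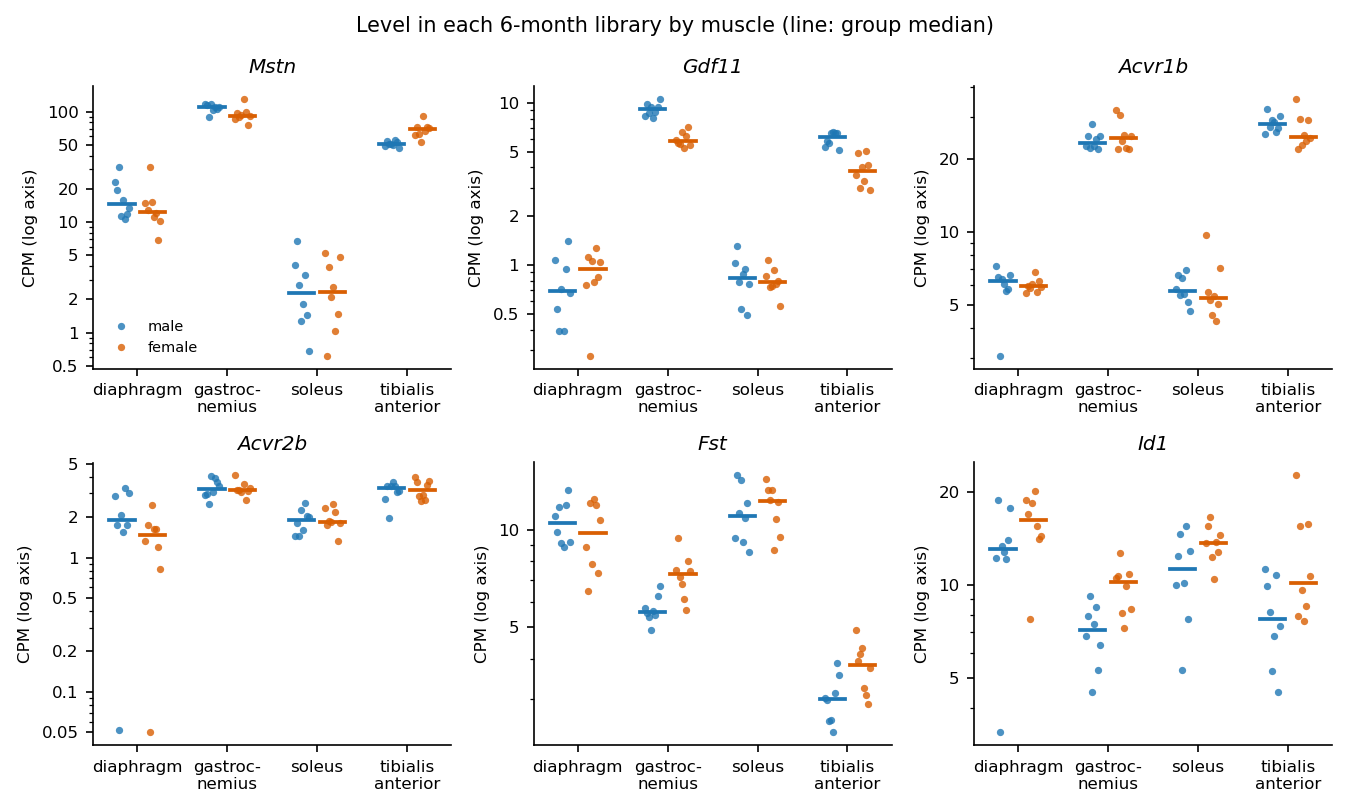
CPM (log axis) of 6 members in each 6-month library, by muscle and sex, with a line at the group median and 1 point per library. Mstn, Gdf11 and Acvr1b sat higher in gastrocnemius and tibialis anterior than in diaphragm and soleus, and Fst was lowest in tibialis anterior.

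Differences between muscles at 6 months were tested with edgeR's quasi-likelihood test within each sex, with Benjamini-Hochberg adjustment over all genes tested. Of 108 tests, 9 members over 12 pairs of muscle and sex, 77 passed an adjusted p of 0.05, beside 51.2% of all tests in these comparisons, and 85 passed without the libraries that stood apart. By pair, the number of members called and the share of all genes were 8 of 9 and 64.1% in males and 8 of 9 and 71.5% in females for diaphragm against gastrocnemius. For diaphragm against tibialis anterior they were 9 and 65.6% in males and 8 and 74.3% in females. Diaphragm and soleus differed in 2 members in males, beside 52.5%, and in 3 in females, beside 59.4%. Gastrocnemius and soleus differed in 8 and 7 members, beside 45.1% and 49.2%, and soleus and tibialis anterior in 8 and 8, beside 45.4% and 55.4%. The 2 fast muscles, gastrocnemius and tibialis anterior, differed in 4 members in each sex, beside 14.2% and 17.2%.

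The Mstn level in gastrocnemius exceeded that in soleus by 5.30 on the log2 scale in males (SE 0.32), a 39.4-fold difference, and by 5.10 in females, a 34.3-fold difference. Diaphragm exceeded soleus by 2.54 in males and 2.38 in females, and tibialis anterior exceeded soleus by more than diaphragm did, with log2 differences of soleus against tibialis anterior of -4.27 and -4.64 for Mstn. Gastrocnemius exceeded tibialis anterior in males, by 1.03 (edgeR adjusted p = 0.00237). In females the Mstn difference between them was 0.46 (edgeR adjusted p = 0.267).

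Gdf11 differed between gastrocnemius and soleus by 3.44 in males and 2.87 in females on the log2 scale. Diaphragm and soleus did not differ beyond their spread in Gdf11, with differences of -0.22 and 0.14 (edgeR adjusted p = 0.484 and 0.572). Acvr1b was lower in diaphragm than in gastrocnemius, with log2 differences of -2.11 and -2.06, and lower in soleus than in tibialis anterior, with -2.33 and -2.16. Fst was higher in soleus than in tibialis anterior, by 1.86 in males and 1.66 in females. For Fst, diaphragm against soleus gave -0.19 and -0.29, and neither passed the test, whereas without the libraries that stood apart the female difference was -0.34 (edgeR adjusted p = 0.0452).

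The sequence just before the gene's start is shown for Mstn and for its close relative Gdf11, since both ligands were high in gastrocnemius and tibialis anterior and low in soleus. The windows hold the 250 bases before the RefSeq start on the gene's strand, in build GRCm38.p6. Capitals mark E-boxes, the letters CANNTG, which read the same on both strands and are the kind of site that myogenic factors of the MyoD family bind. Mstn lies on chromosome 1 (chr1:53061640-53068079, plus strand) and its window is chr1:53061390-53061639; Gdf11 lies on chromosome 10 (chr10:128882295-128891718, minus strand) and its window is chr10:128891719-128891968.
Mstn: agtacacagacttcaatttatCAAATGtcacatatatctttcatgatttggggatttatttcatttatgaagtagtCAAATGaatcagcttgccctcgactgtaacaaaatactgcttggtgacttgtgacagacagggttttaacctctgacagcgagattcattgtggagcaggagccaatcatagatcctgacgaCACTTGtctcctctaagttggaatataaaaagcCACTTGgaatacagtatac
Gdf11: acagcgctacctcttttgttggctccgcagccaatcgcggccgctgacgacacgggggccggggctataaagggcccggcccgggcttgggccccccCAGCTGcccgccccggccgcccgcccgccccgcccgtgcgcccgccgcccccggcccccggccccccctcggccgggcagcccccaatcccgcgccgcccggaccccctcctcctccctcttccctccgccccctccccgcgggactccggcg
The Mstn window held 4 E-boxes, whose first bases lie 229, 174, 52 and 19 bases before the start, and 3.84% of 32851 promoter windows of this length held as many. The Gdf11 window held 1, 153 bases before the start, as at least 1 was found in 66.2% of all windows. Of the other members with a RefSeq window, Fstl3 held 3, a number reached by 12.2% of windows, Acvr1b held 1, and Acvr2a, Acvr2b and Bmpr1a held none of these letters. A match describes the letters and not a bound site.

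The remaining members lie on chromosome 2 (Gdf5, chr2:155941023-155945367, minus strand, Acvr2a, chr2:48814109-48903269, plus strand, and Id1, chr2:152736251-152737410, plus strand), chromosome 13 (Fst, chr13:114452290-114458951, minus strand), chromosome 10 (Fstl3, chr10:79777272-79782630, plus strand), chromosome 9 (Acvr2b, chr9:119402118-119434995, plus strand), chromosome 15 (Acvr1b, chr15:101174067-101213684, plus strand) and chromosome 14 (Bmpr1a, chr14:34410734-34503341, minus strand). These are whole-gene positions in GRCm38 from GENCODE M21, and the counts cover their exons.

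Gdf5, a BMP ligand better known from joints and tendons, was close to the detection limit in young muscle and reached a few CPM in old limb muscle. In male gastrocnemius at 6 months the 8 libraries held 0 to 10 counts of Gdf5, with a median of 3, and levels of 0, 0.0444 and 0.138 CPM (lowest, median and highest). At 27 months the 10 libraries held 49 to 225 counts, and levels of 0.661, 1.43 and 3.11 CPM. In female gastrocnemius the Gdf5 levels were 0.0277, 0.0787 and 0.176 CPM at 6 months and 0.929, 1.61 and 2.27 at 27 months. Neither sex had a 27-month gastrocnemius library within the 6-month range.

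In tibialis anterior Gdf5 levels in females went from 0.0325, 0.193 and 0.3996 CPM at 6 months to 1.12, 2.28 and 9.72 at 27 months, again without overlap. In males they went from 0.0180, 0.0978 and 0.420 to 0.0966, 1.26 and 3.44, with 9 of 10 old libraries above the highest young one. In soleus the old libraries spread widely. Male soleus went from 0, 0.228 and 0.724 CPM to 0.476, 2.004 and 20.6, with 8 libraries above the 6-month range, and female soleus from 0.212, 0.371 and 0.577 to 0.101, 0.962 and 8.92, with 7 above it and 1 below it.

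**Figure D2:**
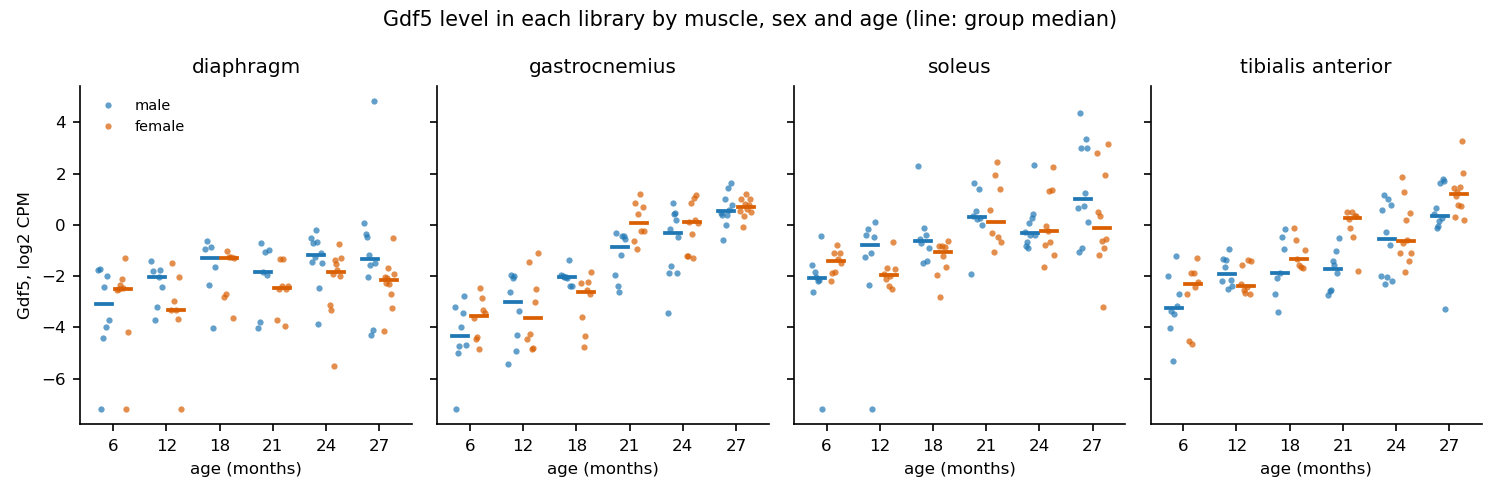
Gdf5 level in log2 CPM in each library, by muscle, age in months and sex, with 1 point per library and a line at each group median. Points at the bottom of the panels are libraries with 0 counts, medians in limb muscle are higher at 27 than at 6 months, and 1 male diaphragm library at 27 months reaches 28.1 CPM.

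Over both sexes, 8 of 20 diaphragm libraries at 27 months lay above their 6-month range of Gdf5. In limb muscle 54 of 60 did, a description with no test, and the sexes of the diaphragm differed. In males the Gdf5 levels were 0, 0.123 and 0.297 CPM at 6 months and 0.0433, 0.390 and 28.1 at 27 months, and in females 0, 0.170 and 0.405 against 0.0491, 0.217 and 0.688. In male diaphragm 7 of 10 old libraries lay above the young range, as many as in female soleus, and in female diaphragm 1 of 10. The male value of 28.1 CPM, 2886 counts, came from replicate 8, and the next highest library of that group had 1.05 CPM.

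Fitted log2 fold changes of Gdf5 at 27 against 6 months were 4.77 in male and 4.27 in female gastrocnemius, 3.53 and 3.96 in tibialis anterior, and 4.33 and 2.72 in soleus. They were 4.41 (SE 0.92) and 0.47 in male and female diaphragm, and 4.36 and 0.61 there without the libraries that stood apart. The male diaphragm value rested on replicate 8 at 27 months, without which it was 1.53. A model with the run of sample numbers as a term gave 0.96 for Gdf5 in male diaphragm, and the libraries of the main run alone gave -1.18. Of the 10 libraries of this group 6 were of the earlier run, 3 of the later run and 1 of the main run. In male soleus the value was 3.80 without replicate 2 at 27 months, and in female soleus 2.24 without replicate 9. In gastrocnemius, leaving out any 1 library gave 4.59 to 5.09 in males and 4.14 to 4.53 in females.

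Among the 6 limb groups of muscle and sex, 1 was clear of its 6-month range of Gdf5 at 18 months, 2 at 21, 1 at 24 and 3 at 27. The fitted changes of Gdf5 at earlier ages differed between muscles and sexes, a description with no test. In male gastrocnemius its log2 fold changes at 12, 18, 21 and 24 months were 1.09, 2.02, 3.04 and 3.75, whereas in female gastrocnemius they were 0.90, 0.79, 3.88 and 3.75. Male soleus gave 1.07, 2.08, 2.47 and 2.21, and female soleus -0.38, 0.19, 2.42 and 1.99. In tibialis anterior the values of Gdf5 were 0.99, 1.46, 1.12 and 2.74 in males and 0.31, 1.35, 2.46 and 2.58 in females. Of the limb libraries, 11 of 48 lay above the highest 6-month library of their own muscle and sex at 12 months, 21 of 46 at 18, 39 of 48 at 21, 46 of 59 at 24 and 54 of 60 at 27 months. In diaphragm its log2 fold changes at 12, 18, 21 and 24 months were 0.52, 1.32, 1.07 and 1.60 in males and -0.33, 0.77, 0.21 and 0.64 in females, and the counts of libraries were 1 of 14, 8 of 13, 3 of 15, 9 of 20 and 8 of 20.

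Markers of denervated fibres moved with Gdf5 in limb muscle. The list summed 10 genes that fibres switch on after loss of the nerve, among them the fetal acetylcholine receptor subunit Chrng, the transcription factor Runx1 and the stress gene Gadd45a. In male gastrocnemius the lowest, median and highest sums were 122, 135 and 146 CPM at 6 months and 194, 224 and 350 at 27 months, and in females 75.9, 90.4 and 101 against 117, 193 and 254. In tibialis anterior the medians went from 77.6 to 170 CPM in males and from 66.8 to 164 in females, and in soleus from 195 to 276 and from 206 to 241. In diaphragm they went from 114 to 129 and from 111 to 128 CPM, with ranges that overlapped. Chrng was near the detection limit, with medians over all ages from 0.0494 CPM in diaphragm to 0.204 in soleus and some libraries at 0 in each muscle. In bulk tissue more denervated fibres and more RNA per fibre cannot be told apart.

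At 27 months 10 and 9 of the 10 markers were called higher in male and female gastrocnemius, 10 and 9 in tibialis anterior and 7 and 7 in soleus (edgeR, adjusted p below 0.05). Of all genes, 10.6% and 14.6% were called higher in gastrocnemius, 9.97% and 12.1% in tibialis anterior and 1.8% and 10% in soleus. In diaphragm 3 were called in males, Runx1 and Gadd45a among them, and 0 in females, beside 5.13% and 0.624% of all genes. The male group holds replicate 8, with a list sum of 520 CPM against a group median of 129. The marker calls were not refitted without that library. Scaled by library totals alone, 4 and 5 were called in soleus, and no marker was called lower in any group. Over 309 limb libraries, centred within muscle and sex, Gdf5 and the list sum had a correlation of 0.794 across libraries that share age groups, and its part in the Gdf5 levels was not tested.

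**Figure D3:**
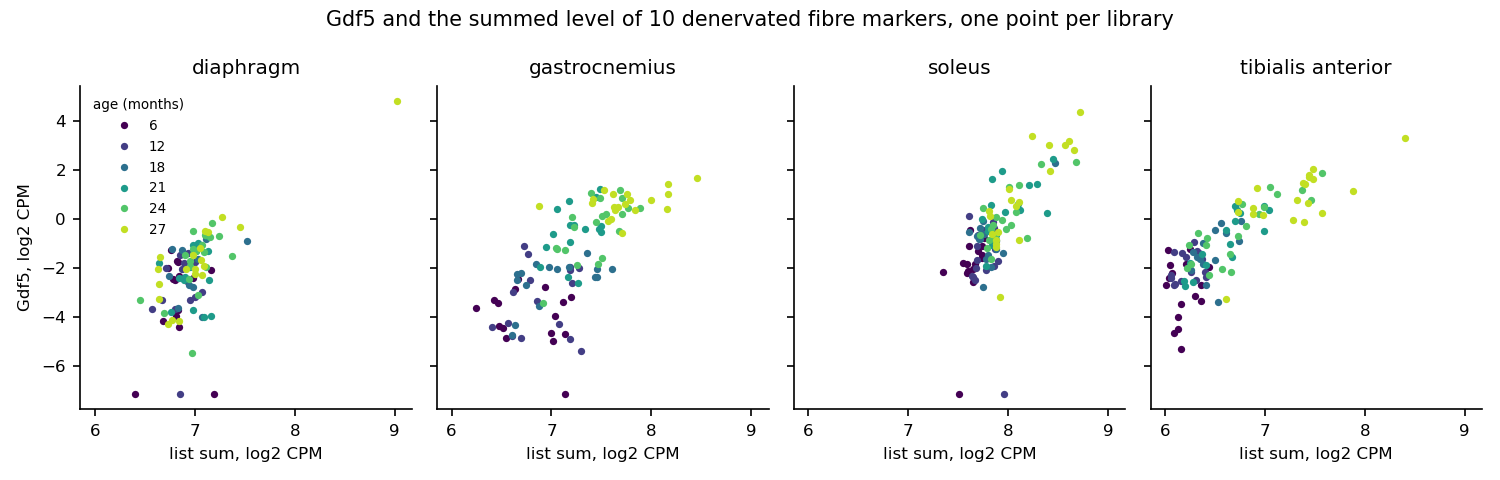
Gdf5 in log2 CPM against the summed level of the 10 denervated fibre markers in log2 CPM, by muscle, with 1 point per library coloured by age in months. In the limb muscles older libraries lie toward high values of both, and in diaphragm 1 library at 27 months lies apart from the rest.

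The libraries with the highest Gdf5 were also high in the list sum and in Runx1, but not in every single marker. Male diaphragm replicate 8 at 27 months had a list sum of 520 CPM against a group median of 129, and Runx1 at 117 CPM against 29.2. Male soleus replicate 2 at 27 months, with Gdf5 at 20.6 CPM, had a sum of 420 against 276 and Runx1 at 102 against 39.8. Chrna1, an acetylcholine receptor subunit of the list, was at 15.5 CPM against 9.75 in this diaphragm library. In this soleus library it was at 50.5 against 51.9. Of the 10 libraries highest in Gdf5, 8 were soleus, 1 diaphragm and 1 tibialis anterior, and 8 of them were 27 months old. Joint tissue is another known source of Gdf5, and of 8 cartilage and joint markers at most 1 was called higher in any limb group at 27 months, with up to 4 lower. Of all genes, 1.8% to 14.6% were called higher and 1.05% to 14.6% lower in these groups. Their median sum went from 92.4 to 71.2 CPM in male and from 111 to 79.3 in female gastrocnemius, from 118 to 120 and from 168 to 136 in soleus, and from 54.7 to 49.2 and from 56.5 to 48.7 in tibialis anterior. In diaphragm it went from 119 to 161 CPM in males and from 152 to 128 in females, and the cartilage gene Matn1 was at 0 counts in many groups. The part of joint tissue in the Gdf5 levels was not tested.

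By the correlation of centred log2 CPM over the 309 limb libraries, the genes most like Gdf5 among 14216 were Runx1 (0.816), Gadd45a (0.759), Cpne2 (0.738), Eda2r (0.737) and Plekhh1 (0.731), of which Runx1 and Gadd45a are also in the list of denervated fibre markers. Within single muscles and sexes the correlation of Gdf5 with Runx1 ranged from 0.673 to 0.913. Rank correlation named 3 of these 5 genes again. Levels were centred on muscle and sex but not on age, and Gdf5 was chosen for its rise with age. A gene that rises with age in limb muscle can therefore rank high for that reason alone. Likeness to Gdf5 apart from age was not tested. Among the other members Fst was most like Gdf5, with 0.418 and rank 242, followed by Fstl3 with 0.232 and Gdf11 with 0.088. Mstn stood at -0.082, and Acvr2b was least like it, with -0.374 and rank 13781.

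Among the 9 tested members, Fst and Gdf11 rose in some muscles, Mstn fell in a pair of female muscles, and most receptor changes did not pass. At 27 against 6 months, 15 of 72 tests, 9 members in 8 groups of muscle and sex, passed an adjusted p of 0.05, of which 9 were higher and 6 lower. Over all genes in the same 8 fits 15.3% of tests were called, 8.01% higher and 7.32% lower, so the members' share lay near that of all genes tested. At 12 months 0 of 72 edgeR tests passed, beside 0.36% of all, and 8 had an unadjusted p below 0.05. At 18 months 3 passed, beside 3.17%. At 21 months 11 passed, beside 9.93%, and at 24 months 13, beside 12.1%. The fold passed 1.5 in 5 of the 15 calls at 27 months.

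By muscle, the members called at 27 months were 3 in male gastrocnemius, beside 23.3% of all genes, and 5 in female gastrocnemius, beside 29.3%. In soleus 1 was called in each sex, beside 2.85% in males and 18.8% in females, and in tibialis anterior 1 in males, beside 17.8%, and 2 in females, beside 21.9%. Male diaphragm had 2, beside 8.65%, and female diaphragm 0, beside 1.61%, with 0 at an unadjusted p below 0.05 and 0 in DESeq2 and limma-voom. Acvr2a, Acvr2b and Id1 were called in none of the 8 groups at this age. Within the main run of sample numbers alone 18 of 72 tests passed, and with the run as a term 15.

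**Figure D4:**
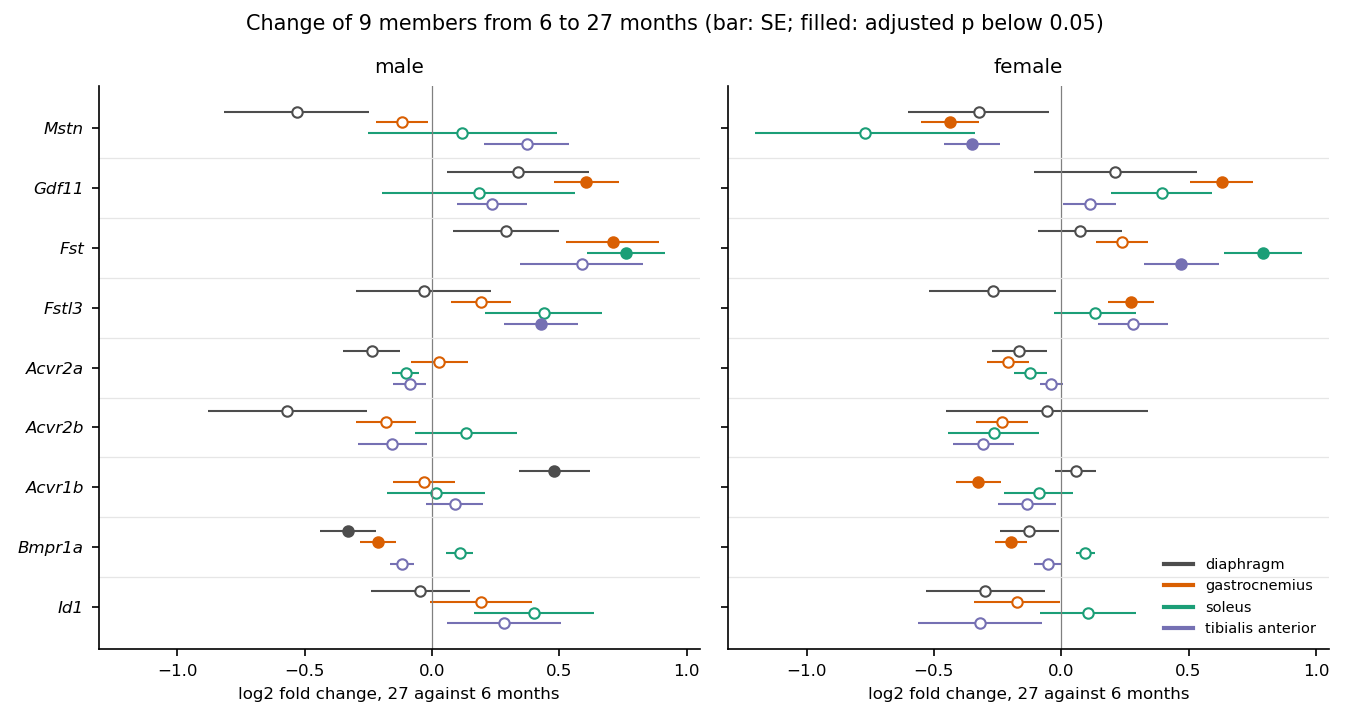
Log2 fold change of the 9 tested members at 27 against 6 months in males (left) and females (right), with the muscle in colour, bars for the SE, and filled points for an adjusted p below 0.05 in edgeR's test. Fst and Gdf11 lie right of 0 in all 8 groups, and the 4 receptors lie between -0.57 and 0.48. In alternative runs Fst in female diaphragm lay at -0.085 when scaled by library totals, and Gdf11 in male diaphragm had a lowest value of -1.46.

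Fst was the member called in most groups. In male soleus its lowest, median and highest levels were 8.54, 11.1 and 14.8 CPM at 6 months and 13.4, 17.9 and 28.6 at 27 months, a log2 fold change of 0.76 (SE 0.15, edgeR adjusted p = 0.00164), with 7 old libraries above the young range. In female soleus Fst went from 8.69, 12.3 and 14.3 to 14.5, 19.8 and 26.3 CPM, without overlap, a log2 fold change of 0.79 (SE 0.15, edgeR adjusted p = 0.000165). These are folds of 1.70 and 1.73.

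In male gastrocnemius Fst also left its young range, from 4.89, 5.59 and 6.71 to 7.25, 8.06 and 13.7 CPM, a log2 fold change of 0.71 (SE 0.18, edgeR adjusted p = 0.00304). In female tibialis anterior it rose from 2.89, 3.83 and 4.92 to 3.58, 5.04 and 7.24 CPM, by 0.47 (SE 0.15, edgeR adjusted p = 0.0154), with overlapping groups. Of 7 liver markers 6 were also called higher in female tibialis anterior at 27 months, beside 12.1% of all genes. Their median sum was 8.97 CPM at 6 and 67.4 at 27 months, and their part in the results of this group was not tested. The change of Fst in male tibialis anterior was 0.59 (edgeR adjusted p = 0.0822) and that in female gastrocnemius 0.24 (edgeR adjusted p = 0.0704). In diaphragm Fst changed by 0.29 and 0.07, and neither passed.

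The soleus call of Fst came early. It was called in soleus from 18 months on, with log2 fold changes of 0.69, 0.59 and 0.95 at 18, 21 and 24 months in males and 0.50, 0.78 and 0.86 in females. In male gastrocnemius Fst was called from 21 months, with 0.70 and then 0.76 at 24 months, and in male tibialis anterior at 24 months only, with 0.74. The change of Fst at 27 months in female soleus exceeded that in female diaphragm by 0.72 (SE 0.20, edgeR adjusted p = 0.0191), beside 5.07% of all genes in that test.

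Gdf11 was called in gastrocnemius of both sexes. In males its levels were 8.12, 9.13 and 10.6 CPM at 6 months and 9.51, 14.6 and 16.7 at 27 months, a log2 fold change of 0.61 (SE 0.13, edgeR adjusted p = 0.00027), with 8 of 10 old libraries above the young range. In females Gdf11 went from 5.24, 5.79 and 7.09 to 4.25, 9.56 and 10.5 CPM, by 0.63 (SE 0.12, edgeR adjusted p = 9.5e-05), with 9 of 10 above. The exception, at 4.25 CPM, was replicate 0, 1 of the 9 libraries that stood apart, and without it the change was 0.71 (edgeR adjusted p = 5.1e-07). Male gastrocnemius was called from 21 months on, with 0.70 and 0.76 at 21 and 24 months, and female gastrocnemius at 24 months with 0.42. In the other 6 groups the Gdf11 change lay between 0.11 and 0.39 and did not pass.

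Mstn was called lower in a pair of female muscles at 27 months. In female gastrocnemius its levels were 75.95, 92.4 and 131 CPM at 6 months and 26.1, 74.1 and 95.7 at 27 months, a log2 fold change of -0.44 (SE 0.11, edgeR adjusted p = 0.00293), with 7 of 10 old libraries below the young range. In female tibialis anterior Mstn went from 53.1, 69.2 and 92.3 to 35.4, 52.6 and 70.4 CPM, by -0.35 (SE 0.11, edgeR adjusted p = 0.018), and this call was lost without replicate 4 at 6 months (-0.28, edgeR adjusted p = 0.0696). It was also called there at 24 months, with -0.31 (edgeR adjusted p = 0.0462). These are folds of 0.739 and 0.785. Without replicate 0, which stood apart at 26.1 CPM, the change in female gastrocnemius was -0.34 (edgeR adjusted p = 0.000821), and with only the 6- and 27-month libraries fitted it was -0.43 (edgeR adjusted p = 0.0663). Fibre genes moved as well in that muscle: of 5 fast fibre genes 3 were called lower in each sex at 27 months, and of 4 slow fibre genes 3 in males and 4 in females were called higher. Of all genes there, 12.6% in males and 14.6% in females were called lower, and 10.6% and 14.6% higher. The part of the fibre genes in the Mstn and Gdf11 changes was not tested.

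In males Mstn passed in no muscle at 27 months with all libraries. Male gastrocnemius had 90.3, 111 and 117 CPM at 6 months and 60.5, 101 and 136 at 27 months, a log2 fold change of -0.12 (edgeR adjusted p = 0.423). Within the main run of sample numbers alone it was -0.31 in male gastrocnemius (edgeR adjusted p = 0.0199), so that Mstn was then called lower there as in females, and with all libraries the test of the sexes' difference in this change did not pass (female minus male -0.34, edgeR adjusted p = 0.245). Male tibialis anterior had 46.5, 51.1 and 55.9 CPM against 38.0, 55.2 and 164, a change of 0.37 (edgeR adjusted p = 0.113), with the highest value in replicate 6. In soleus Mstn changed by 0.12 in males and -0.77 in females (SE 0.43 in females, edgeR adjusted p = 0.219), and at 21 months it was called lower in female soleus (log2 fold change -1.33, edgeR adjusted p = 0.0327). In diaphragm the changes were -0.53 and -0.32 and did not pass.

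**Figure D5:**
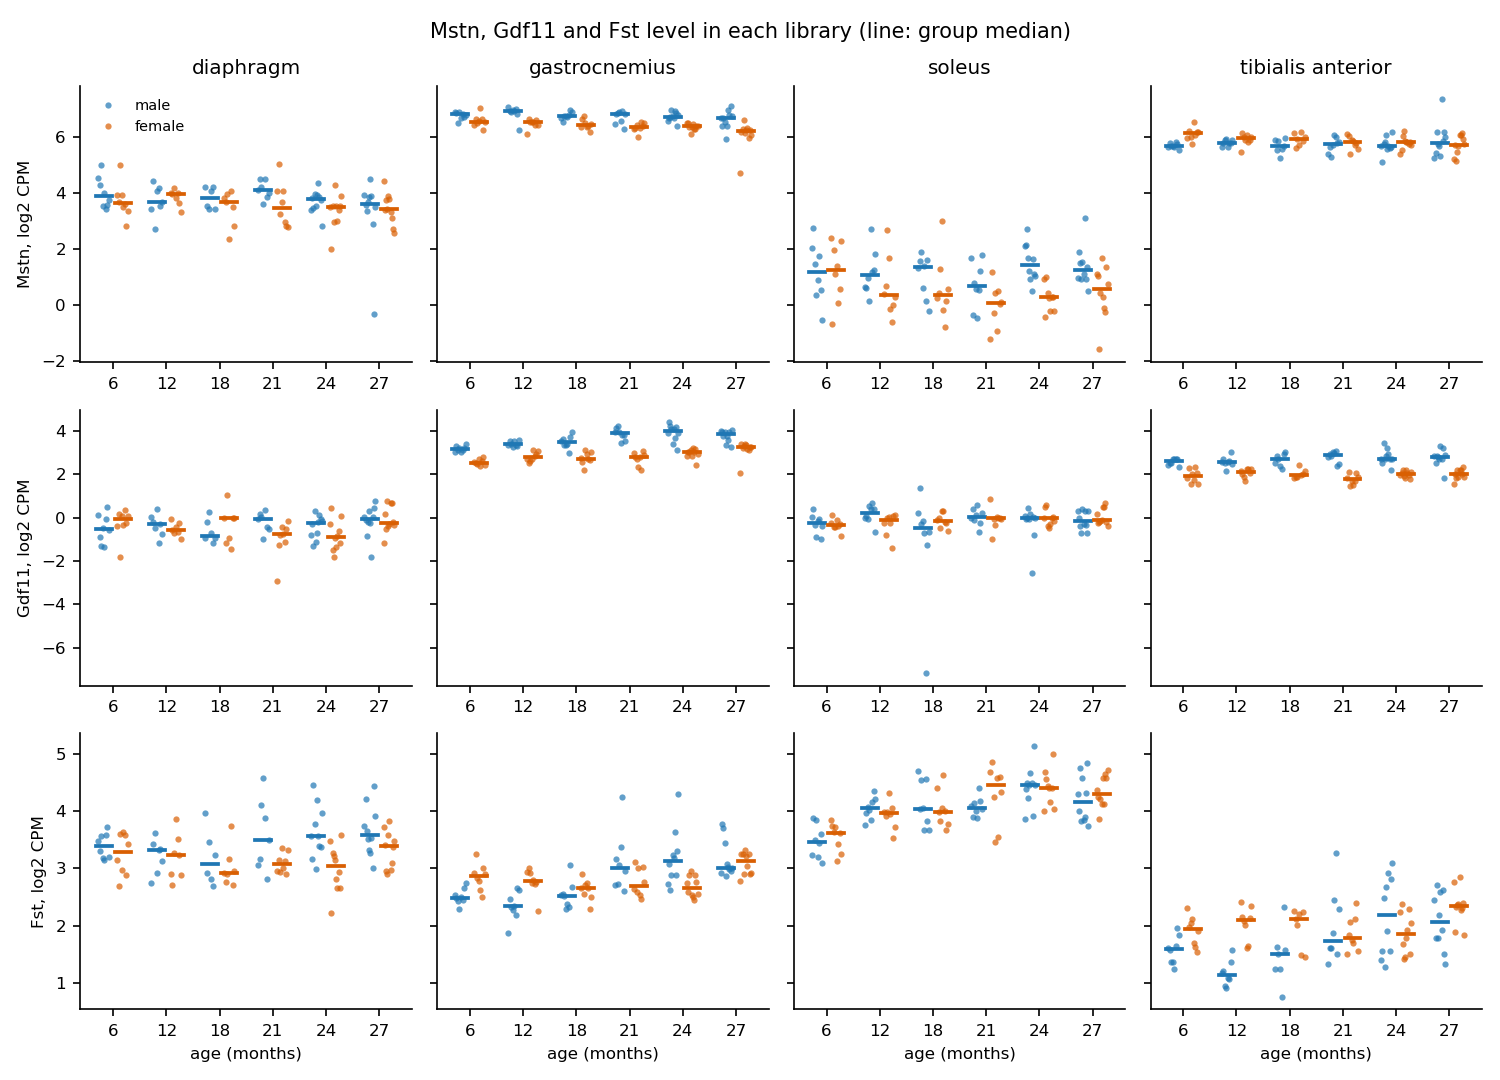
Levels of Mstn, Gdf11 and Fst in log2 CPM in each library, by muscle, age in months and sex, with a line at each group median. Fst in soleus and Gdf11 in gastrocnemius have higher medians at 27 than at 6 months in both sexes, and 1 male diaphragm library at 27 months has Mstn at 0.799 CPM against a group median of 12.1.

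Fstl3, the second inhibitor, was called in 2 groups at 27 months. In female gastrocnemius it went from 1.19, 1.51 and 1.798 to 1.41, 1.83 and 2.34 CPM, a log2 fold change of 0.27 (SE 0.09, edgeR adjusted p = 0.0199), and it was called at 18, 21 and 24 months there too, with 0.40, 0.46 and 0.53. In male tibialis anterior Fstl3 went from 0.589, 0.970 and 1.08 to 0.872, 1.20 and 1.73 CPM, by 0.43 (SE 0.15, edgeR adjusted p = 0.0352). The groups overlapped in both muscles, with 6 old libraries above the young range in each. Leaving out any of 7 single libraries ended the call in male tibialis anterior (27-month replicates 1, 3 and 5 and 6-month replicates 0, 1, 2 and 4), with adjusted p from 0.0502 to 0.0941, and leaving out 27-month replicate 1 or 6-month replicate 3 ended that in female gastrocnemius, with 0.055 and 0.0578.

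The receptors changed by small amounts. Acvr1b fell in female gastrocnemius, from 22.0, 24.4 and 32.1 to 17.9, 19.7 and 22.7 CPM, with 8 old libraries below the young range and a log2 fold change of -0.33 (SE 0.09, edgeR adjusted p = 0.0039). In male diaphragm Acvr1b rose from 3.07, 6.23 and 7.24 to 5.74, 7.54 and 17.3 CPM, by 0.48 (SE 0.14, edgeR adjusted p = 0.0266). That call was lost without 27-month replicate 8, the library with the highest Gdf5 (0.28, edgeR adjusted p = 0.10004), and without 6-month replicate 2, which stood apart (0.38, edgeR adjusted p = 0.0521). Without all libraries of the group that stood apart the Acvr1b change was 0.40 (edgeR adjusted p = 0.0273). All 4 T cell markers tested in male diaphragm were called higher at 27 months, beside 5.13% of all genes, and their part was not tested.

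Bmpr1a was lower in gastrocnemius of both sexes at 27 months. Its levels went from 120, 148 and 164 to 104, 124 and 138 CPM in males, a log2 fold change of -0.21 (SE 0.07, edgeR adjusted p = 0.0249), and from 113, 133 and 153 to 69.2, 120 and 131 in females, by -0.20 (SE 0.06, edgeR adjusted p = 0.0147). The groups overlapped in both sexes, and the male call was lost without any 1 of 5 libraries (27-month replicates 1 and 4 and 6-month replicates 3, 5 and 7), with adjusted p from 0.0515 to 0.0722. In male diaphragm Bmpr1a changed by -0.33 (SE 0.11, edgeR adjusted p = 0.0480), from 107, 116 and 249 to 89.3, 102 and 136 CPM. The 249 CPM came from 6-month replicate 2, 1 of the libraries that stood apart, and without it the change was -0.12 (edgeR adjusted p = 0.237). Without both libraries of this muscle and sex that stood apart at 6 and 27 months, and that at 21 months, it was -0.18 (edgeR adjusted p = 0.0231). The call was also lost without any 1 of 27-month replicates 0, 2, 4, 5, 7, 8 and 9.

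The type II receptors and Id1 passed only at intermediate ages and in females. Acvr2b was lower in female gastrocnemius at 21 and 24 months, by log2 fold changes of -0.41 and -0.37, and in female tibialis anterior at 24 months, by -0.41. Id1, the BMP target, was lower in female gastrocnemius at 21 and 24 months, by -0.58 at both ages, and in female soleus at 21 months, by -0.55. Acvr2a was lower in female soleus at 21 and 24 months, by -0.26 at both, and Bmpr1a was higher there at 21 months, by 0.13. At 27 months Id1 had log2 fold changes above 0 in 4 groups and below 0 in 4, among them 0.40 in male soleus and -0.32 in female tibialis anterior. For Acvr2a in female gastrocnemius the 27-month change was -0.21 (edgeR adjusted p = 0.0507).

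Without the libraries that stood apart, the 4 affected groups of muscle and sex gave 13 calls among 36 tests, against 10 with them. Acvr2b was then called in male diaphragm, with a log2 fold change of -0.64 (edgeR adjusted p = 0.0204), and in female gastrocnemius, with -0.29 (edgeR adjusted p = 0.0199). Fst was then called in female gastrocnemius, with 0.27 (edgeR adjusted p = 0.0402).

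Between the sexes at 6 months, 4 of 36 tests of the 9 members in 4 muscles passed, beside 10.4% of all tests. Gdf11 was lower in females in gastrocnemius, with a female minus male log2 difference of -0.60 (SE 0.13, edgeR adjusted p = 0.000235), and in tibialis anterior, with -0.64 (SE 0.13, edgeR adjusted p = 0.000119). The Gdf11 groups did not overlap in gastrocnemius, where males had 8.12 to 10.6 CPM and females 5.24 to 7.09. In tibialis anterior Mstn was higher in females, by 0.43 (SE 0.15, edgeR adjusted p = 0.0419), and Acvr2a lower, with -0.19 (SE 0.06, edgeR adjusted p = 0.0205). By muscle the counts were 1 in gastrocnemius, beside 19.8%, 3 in tibialis anterior, beside 13.6%, 0 in soleus, beside 8.41%, and 0 in diaphragm, beside 0.512%. Neither of the last muscles had a member with an unadjusted p below 0.05 in edgeR, and DESeq2 called 4 of the 36 as well.

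The change from 6 to 27 months differed between the sexes in 1 of 36 tests, beside 1.02% of all. It was Mstn in tibialis anterior, with a female minus male difference of -0.72 in the log2 fold change (SE 0.20, edgeR adjusted p = 0.0394), beside 1.73% of genes in that muscle. Without male 27-month replicate 6, the library with Mstn at 164 CPM, the difference was -0.45 (edgeR adjusted p = 0.152).

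Each limb muscle's change was also compared with that of diaphragm in the same sex, and 2 of 54 tests passed, beside 3.62% of all. Besides Fst in female soleus, given above, Bmpr1a in male soleus differed from male diaphragm by 0.42 (SE 0.11, edgeR adjusted p = 0.0113), beside 4.1% of genes in that test. Without the libraries that stood apart the Bmpr1a difference was 0.29 (edgeR adjusted p = 0.0113), and Acvr2b in male soleus was called as well, with 0.77 (edgeR adjusted p = 0.0362).

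Other genes of the same signalling system were taken from a list of 66 genes, of which 65 were tested in at least 1 group of muscle and sex. Over 514 tests at 27 months, 55 were higher and 55 lower, 21.4% in all, beside 15.3% of tests over all genes. Without the libraries that stood apart 58 were higher and 68 lower, and scaled by library totals 63 and 50. Inhibitors were mostly lower among those called, 20 against 4 higher of 108 tests, and ligands were 14 higher and 8 lower of 110. Receptors were 10 higher and 6 lower of 96, and inhibitory Smads and corepressors 10 and 5 of 56. Genes listed as targets were 9 higher and 2 lower of 64, of which Fbxo30 gave 3 higher and 1 lower. Whether a higher target means more signalling was not tested. Enzymes that process the ligands were 2 higher and 8 lower of 32, and the signalling Smads 6 and 6 of 48.

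Some of these genes were called in 4 or 5 of the 8 groups. Gdf6, a BMP ligand closely related to Gdf5, was called higher in 4, with log2 fold changes of 1.04 and 1.18 in male and female gastrocnemius, 2.40 in male soleus and 0.99 in male tibialis anterior, and it had -0.41 in female tibialis anterior, which did not pass. Smad7, an inhibitory Smad that receptor signalling induces, was called higher in 5 groups and ranged from -0.13 to 0.62 over all 8. Smad9, a signal carrier of the BMP side, was called higher in 4, over a range of 0.30 to 0.99. Id2, a relative of Id1, was called higher in 4, with 0.77 in male diaphragm, 0.49 in female gastrocnemius, 0.79 in male soleus and 0.73 in female tibialis anterior.

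On the inhibitor side Fstl1, a secreted follistatin-like glycoprotein, was called lower in 5 groups and ranged from -0.16 to -0.56 over all 8. Pcsk5, a proprotein convertase that cleaves GDF11 precursors, was called lower in 5, over a range of -0.10 to -0.73. Decorin (Dcn), a matrix proteoglycan, Smoc2 and the ligand Bmp5 were each called lower in 4, with lowest changes of -0.67, -0.66 and -0.68. Scaled by library totals, Pcsk5, Fstl1 and Dcn were called lower in 3 groups each and Bmp5 in 2. Of 5 fibroblast markers 4 and 4 were called lower at 27 months in male and female gastrocnemius, beside 12.6% and 14.6% of all genes. In soleus 2 and 5 were, beside 1.05% and 8.74%, and in tibialis anterior 4 and 2, beside 7.81% and 9.84%. In diaphragm 0 and 1 were, beside 3.52% and 0.988%. The part of these markers in the lower matrix genes was not tested. Fbxo30, a ubiquitin ligase of muscle, was called higher in 3 and lower in 1.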

How the data were processed

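Strand-specific total RNA libraries, depleted of ribosomal RNA, were sequenced as paired reads from 407 muscle samples. The authors mapped the reads to mouse build mm10 with ArrayStudio and deposited 1 table of raw counts per library, over a RefSeq-based gene model of their own. Of 25091 table entries, 24458 gene symbols were kept, and 633 further entries of the 329 symbols listed more than once, 0.0335% of all counts, were left out. No member of the pathway was among these symbols.

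The deposited counts were tested with edgeR 4.0.16 in R 4.3.3. Each muscle and sex was fitted apart with all 6 ages, after filterByExpr and TMM scaling, with the quasi-likelihood test and Benjamini-Hochberg adjustment over all genes tested. A gene was called at an adjusted p below 0.05. Muscles and sexes were compared in joint fits of the same kind. The standard error of a log2 fold change was its size divided by the square root of the F statistic. CPM were scaled by TMM over all libraries, with 0.5 added on the log2 scale. The length used per kilobase was the exon union of GENCODE M21, which is not the authors' gene model. Promoter windows came from RefSeq, which gave one for 7 of the 10 members.

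The members, the 66 signalling genes and the marker lists were chosen with earlier results of these data known. The genes named besides the members were those called in at least 4 of 8 fits, and the 5 genes most like Gdf5 in the limb libraries. Genes withheld from the text are not reported here. Gdf5 was given no test because its rise with age led to its choice. The study's own analysis used limma with a fold of 1.5 and Bonferroni adjustment, which was run here as an alternative threshold on the edgeR results. Further alternatives were limma-voom (limma 3.58.1), DESeq2 1.42.0, other scalings and filters, a replicate block, the run of sample numbers as a term, fewer libraries and each library left out in turn. The tests were checked on simulated data. Intervals were not computed for single libraries, and low counts limit Gdf5 at 6 months. Replicates were separate libraries, numbered in the labels.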

Additional observations from a re-analysis of the deposited data

Results flagged for a closer look

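Within each group of 6 and 27 months, and at every age for Gdf5, the highest and lowest library was compared with the others on the log2 CPM scale. Of 192 groups, 43, or 22.4%, had an end farther away than Dixon's 95% limit allows, where chance gives about 1 in 20. The libraries that recur are mostly those that stood apart over all genes. Values are CPM.

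Male diaphragm replicate 8 at 27 months was highest in Gdf5 at 28.1 and in Acvr1b at 17.3, and lowest in Mstn at 0.799. Male diaphragm replicate 2 at 6 months was lowest in Fstl3 at 0.236, Acvr2b at 0.0524, Acvr1b at 3.07 and Id1 at 3.33, and highest in Acvr2a at 95.8 and Bmpr1a at 249. Male diaphragm replicate 6 at 27 months had Fstl3 at 0.491, Acvr2a at 60, Acvr2b at 0.217 and Id1 at 3.97. Female diaphragm replicate 0 at 27 months had Fstl3 at 0.393, Acvr2a at 62.6, Acvr2b at 0.0164, Bmpr1a at 169 and Id1 at 3.66. Female diaphragm replicate 2 at 6 months had Gdf11 at 0.276, Acvr2a at 71.8, Acvr2b at 0.0502, Bmpr1a at 184 and Id1 at 7.76. Female gastrocnemius replicate 0 at 27 months was lowest in Mstn at 26.1, Gdf11 at 4.25, Acvr2a at 37.6 and Bmpr1a at 69.2.

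In male tibialis anterior replicate 6 at 27 months was highest in Mstn at 164 and in Acvr2a at 102, replicate 8 was lowest in Gdf11 at 3.51, and replicate 9 was lowest in Gdf5 at 0.0966. At 6 months replicate 1 of that muscle was lowest in Fstl3 at 0.589 and replicate 0 lowest in Bmpr1a at 152. Male soleus replicate 2 at 27 months was lowest in Acvr1b at 1.33, against a group median of 5.59.

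For Gdf5 the libraries far from their group were male soleus replicate 7 at 6 months and replicate 5 at 12 months and female diaphragm replicate 6 at 12 months, all with 0 counts, male soleus replicate 0 at 18 months with 4.89, replicate 0 at 21 months with 0.255 and replicate 8 at 24 months with 4.97, female soleus replicate 6 at 12 months with 0.623, female tibialis anterior replicate 7 at 21 months with 0.282 and male gastrocnemius replicate 5 at 18 months with 0.375. In a group where Gdf5 is near 0 such a gap covers few counts. Male soleus replicate 8 at 24 months also had Runx1 at 153 against a group median of 27.3 and the denervated fibre markers at 411 against 231.

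A tested difference between groups set 3 results apart. The change of Mstn in tibialis anterior differed between females and males by -0.72 on the log2 scale, a call that was lost without male 27-month replicate 6 (-0.45, edgeR adjusted p = 0.152) and with limma-voom (-0.60, adjusted p = 0.105). The change of Bmpr1a in male soleus differed from that in male diaphragm by 0.42, and the change of Fst in female soleus from that in female diaphragm by 0.72.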

How the results depend on the processing

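The 15 calls at 27 months became 14 with limma-voom, 17 with DESeq2, 15 with RLE size factors, 12 with library totals only, 13 without a filter and 15 with a filter at 1 CPM. They became 9 when only the 6- and 27-month libraries were fitted, 5 with a fold above 1.5 and 0 with Bonferroni adjustment (edgeR). The 4 Fst and 2 Gdf11 calls passed with every library left out in turn and, apart from Bonferroni adjustment and, for Fst in female tibialis anterior, the fold of 1.5, in each alternative run. Male diaphragm, with 2 calls, had 0 with limma-voom, library totals, the run as a term, the 6- and 27-month or main run libraries alone, or a fold of 1.5, and 1 without a filter. Male gastrocnemius went from 3 to 5 in the main run alone, which added Mstn (-0.31) and Acvr1b (-0.31, edgeR adjusted p = 0.011), and female gastrocnemius from 5 to 2 with the 6- and 27-month libraries and 1 with the fold. Female soleus went from 1 to 3 with library totals. Male tibialis anterior went from 1 to 0 without a filter or with the fold, to 2 with the run as a term and to 4 in the main run alone, which added Fst (0.83, edgeR adjusted p = 0.0238), Acvr2a and Bmpr1a. Female tibialis anterior went from 2 to 1 with library totals, the 6- and 27-month libraries or the main run, and to 0 with the fold. Each of the 7 groups with a call had 0 with Bonferroni adjustment. The sex difference in the change, 1 call, was 0 with limma-voom. The counts between muscles at 6 months were 75 with RLE size factors and 66 with only the 6-month libraries. The cause of these shifts was not tested, beyond the fewer libraries or genes of the alternatives concerned.

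Replicates were numbered 0 to 9. Libraries with the same number at different ages were compared within each muscle and sex. Their median correlation of deviations ran from -0.08 to 0.11, with pairs below -0.18 in every muscle and sex. Libraries of different ages come from different mice, so these values cannot show whether a number marks the same mouse across muscles. That was not tested. With the replicate block 16 tests passed, 0 in male diaphragm, 7 in female gastrocnemius and 2 in male tibialis anterior, and the Gdf5 change in male diaphragm was 1.61. DESeq2 gave 1.51 and limma-voom 2.23 for that value.

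Leaving out 1 library gave 0 to 2 calls in male diaphragm, 2 to 3 in male gastrocnemius, 1 to 1 in male soleus, 0 to 2 in male tibialis anterior, 0 to 0 in female diaphragm, 4 to 7 in female gastrocnemius, 1 to 2 in female soleus and 1 to 3 in female tibialis anterior. Single results gained a call in 21 such fits, 9 of them Acvr2a or Fst in female gastrocnemius and 5 Acvr2b in female tibialis anterior. Mstn in male tibialis anterior gained one without 27-month replicate 0 (0.43, edgeR adjusted p = 0.0498).

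The direction reversed in 3 results that were called or that carry no test. Among 2601 comparisons of a tested result with an alternative, a further 67, called in neither, differed in direction. Gdf5 in male diaphragm was -1.18 and Bmpr1a there 0.000272 (edgeR adjusted p = 1) within the main run alone, which left 1 library at 27 months, and Gdf5 in female diaphragm was -0.012 with the run as a term. Library totals only shifted the median log2 fold change of all genes by -0.127 in female diaphragm, 0.124 in female gastrocnemius and -0.190 in female soleus. The split of higher and lower calls over all genes then moved from 101 and 160 to 60 and 400 in female diaphragm, from 1617 and 1925 to 2577 and 810 in male and from 2249 and 2251 to 4991 and 764 in female gastrocnemius, from 1543 and 1342 to 503 and 6001 in female soleus, and from 1444 and 1132 to 1675 and 600 in male and from 1767 and 1437 to 2651 and 614 in female tibialis anterior. DESeq2 gave 257 and 265 in female diaphragm. With library totals 6 member calls were lost, Acvr1b and Bmpr1a in male diaphragm and in female gastrocnemius, Bmpr1a in male gastrocnemius and Mstn in female tibialis anterior, and 3 were gained, Fst in female gastrocnemius (0.36, edgeR adjusted p = 0.0112), Acvr2a in female soleus (-0.32, edgeR adjusted p = 0.0012) and Acvr2b there (-0.46, edgeR adjusted p = 0.0370). Fits of the main run alone, without the libraries that stood apart, without male tibialis anterior replicate 6 and of the signalling genes under other scalings were chosen after seeing the data.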
